A study of Mus musculus with 8 samples.

Results

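The proteasome is the protease that breaks down proteins tagged with ubiquitin. Its genes were taken as every mouse gene named Psma, Psmb, Psmc, Psmd or Psme plus a number, and 41 such genes had an array cluster of their own among the 30738 genes measured. Psmb5 and Psme2 have the same kind of name but share their clusters with other genes, so they are not analysed here. The 8 samples were RNA of primary mouse cultures differentiated from radial glial progenitors toward ependymal cells, the ciliated cells that line the brain ventricles. By their titles, 4 samples were untreated and 4 received epidermal growth factor (EGF) at 20 ng/ml from the start of differentiation, all in medium with serum for 2 weeks. The source names of the same samples disagree: they name DMSO, a solvent, for the 4 untreated samples and MLN4924 for the other 4. MLN4924 blocks activation of NEDD8, a relative of ubiquitin. Groups below follow the titles, and the labels do not settle what the arrays titled EGF received. The strain, the animals behind the cultures and whether replicates are separate cultures are not given. All p-values therefore rest on the variation among these 8 samples, part or all of which may be technical.

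A proteasome has a barrel-shaped core particle of 2 outer alpha rings and 2 inner beta rings, with protein cutting done inside by 3 kinds of beta subunit. A regulatory particle caps the barrel: its base holds a ring of ATPases that unfold the substrate, and its lid removes ubiquitin. Interferon-responsive cells and immune cells exchange the cutting subunits for Psmb8, Psmb9 and Psmb10, which gives the immunoproteasome, known for making peptides for MHC class I presentation. Activators of the Psme family can replace the cap. Cells short of proteasome activity are known to raise the subunit genes together through the transcription factor NRF1 (gene Nfe2l1), which binds antioxidant response elements in their promoters.

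Sequence upstream of the members' start sites was available in RefSeq for 34 of the 41 genes, as 36 windows of 250 bases. The 5 below are shown because they belong to genes on which the results turn: the catalytic subunit gene Psmb6, the immunoproteasome gene Psmb8, the ATPase genes Psmc4 and Psmc6, which moved in opposite directions, and the activator gene Psme3. They are written 5′ to 3′ on the gene's strand and end at the base before the start site. Capitals mark every match, on either strand, to 5 motifs: TGACNNNGC (antioxidant response element core), CCAAT, the core of the interferon-stimulated response element, TTCNNNGAA (a STAT site) and CTTCCGG (core of the site of ETS factors).
Psmb6 (chr11:70525107-70525356, plus strand, GRCm38.p6): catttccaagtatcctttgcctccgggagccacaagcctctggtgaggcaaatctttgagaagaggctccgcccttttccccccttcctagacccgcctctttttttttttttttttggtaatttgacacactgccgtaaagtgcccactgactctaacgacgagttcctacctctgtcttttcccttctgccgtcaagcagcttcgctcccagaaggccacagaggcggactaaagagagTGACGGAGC
Psmb8 (chr17:34197945-34198194, plus strand, GRCm38.p6): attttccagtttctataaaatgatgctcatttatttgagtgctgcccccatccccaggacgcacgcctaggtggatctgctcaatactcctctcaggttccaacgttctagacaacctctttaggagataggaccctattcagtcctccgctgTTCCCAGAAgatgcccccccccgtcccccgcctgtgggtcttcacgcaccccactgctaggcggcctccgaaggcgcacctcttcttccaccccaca
Psmc4 (chr7:28050093-28050342, minus strand, GRCm38.p6): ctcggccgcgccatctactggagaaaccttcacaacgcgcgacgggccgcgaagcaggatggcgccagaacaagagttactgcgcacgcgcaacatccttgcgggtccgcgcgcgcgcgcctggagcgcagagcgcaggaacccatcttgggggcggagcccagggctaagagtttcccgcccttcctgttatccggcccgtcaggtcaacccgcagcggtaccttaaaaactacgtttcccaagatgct
Psmc6 (chr14:45329574-45329823, plus strand, GRCm38.p6): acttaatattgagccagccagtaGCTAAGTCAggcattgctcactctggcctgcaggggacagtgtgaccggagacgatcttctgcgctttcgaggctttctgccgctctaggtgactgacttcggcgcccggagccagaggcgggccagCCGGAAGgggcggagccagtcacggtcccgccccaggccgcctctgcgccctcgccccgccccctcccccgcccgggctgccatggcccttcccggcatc
Psme3 (chr11:101315963-101316212, plus strand, GRCm38.p6): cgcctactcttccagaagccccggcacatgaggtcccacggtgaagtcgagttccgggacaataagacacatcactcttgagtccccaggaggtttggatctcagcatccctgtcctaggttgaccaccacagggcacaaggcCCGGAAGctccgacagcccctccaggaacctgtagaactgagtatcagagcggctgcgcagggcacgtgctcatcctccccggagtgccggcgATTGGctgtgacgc
A STAT-type match was found in the Psmb8 window, an antioxidant-type match in those of Psmb6 and Psmc6, ETS-type matches in those of Psmc6 and Psme3 and a CCAAT match in that of Psme3. No motif matched in the Psmc4 window. CTTCCGG was present in 12 of the 36 member windows (33.3%, from 11 genes), in 8.98% of 21262 windows of protein-coding genes and in 6.91% of all 32851 windows. Among members it was present in 8 of 27 windows of genes that fell and in 4 of 9 windows of the others. TGACNNNGC was present in 4 member windows (11.1%) and in 10.4% of windows of protein-coding genes. CCAAT was present in 14 member windows (38.9%) and in 35.4% of those of protein-coding genes, the interferon-stimulated element core in 3 (8.33%) and 2.96%, and TTCNNNGAA in 1 (2.78%) and 6.58%. A match of letters is a description and not a bound site.

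Values are log2 signals of an array, in which a difference of 1 is a change of 2-fold, and all p-values of single genes are from limma with Benjamini-Hochberg adjustment over all genes (threshold 0.05). The median gene was 0.17 higher in the EGF arrays (0.08 among genes with a mean signal of at least 6). Column medians lay between 4.56 and 4.60 in the untreated arrays and between 4.71 and 4.82 in the EGF arrays. Changes near 0.17 therefore have no settled direction. Markers of ependymal cells stood high in the untreated arrays and were lower in the EGF arrays for 11 of 11 genes (median log2 change -6.29). The multiciliation regulator Mcidas read 11.73 to 12.30 untreated and 5.54 to 5.87 with EGF. Of 17 microglial markers 16 fell, and of 8 astrocyte markers 6 rose and 2 fell (5 and 2 after centring or cyclic loess). Falls were seen in 6 of 7 neuronal, 5 of 6 fibroblast and mural and 3 of 4 choroid plexus markers. After quantile normalization 2 choroid plexus markers fell. Ttr, a choroid plexus marker that fell as deposited, had overlapping groups (SD 2.28 untreated and 1.99 with EGF). Of 5 endothelial markers 4 rose and 1 fell, but 2 rose under each of 3 other scalings. Of 5 oligodendrocyte lineage markers 2 rose and 1 fell, against 1 and 0 after quantile normalization and 1 and 1 after centring or cyclic loess. As deposited, 39.7% of all genes rose and 20.7% fell, and the oligodendrocyte counts lie near these shares. Among genes with a mean signal of at least 6, the shares were 42.3% and 36%. Markers of several cell types thus moved with the groups, and fewer cells of a type and less RNA per cell cannot be told apart in bulk RNA; the part of cell makeup in the changes below was not tested.

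Proteasome genes were mostly lower in the EGF arrays: 29 of 41 fell, 2 rose (Psmb1 and Psmc6) and the other 10 missed the threshold. The median of their log2 changes was -0.60. Of all genes 20.7% fell and 39.7% rose (60.3% together). Among the brighter genes, with a mean signal of at least 6, these shares were 36% and 42.3%, and 39 members belong to that class. Wherever given, the shares of brighter genes come from a separate fit and adjustment of those genes alone. In that fit 30 members fell and 2 rose. In 30 members all EGF arrays lay below all untreated arrays, against 19.9% of all genes, and in 2 members they lay above, against 34% of all genes. Falls of at least 2-fold occurred in 8 members, against 7.42% of all genes, and no member rose that far, against 6.25%. In order of size these 8 were Psmc4, Psmb8, Psmb6, Psmb10, Psme3, Psmc2, Psmd5 and Psmd10; differences between them were not tested. Other scalings gave more falls: 32 members fell after a further quantile normalization, where 24.8% of all genes fell and 23.7% rose. After centring each array on its median 35 members fell (27.8% of all genes; 18.7% rose), and after cyclic loess also 35 (27.3%; 20.6% rose). Psmb1 and Psmc6 rose under each. The shares without overlap, of 2-fold change and under other scalings are over all genes. They were not counted among the brighter genes alone. The 30 measured subunits of the constitutive particle averaged 11.41, 11.38, 11.38 and 11.35 across the untreated arrays. The EGF arrays gave 10.91, 10.93, 10.83 and 10.81, all lower.

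**Figure D1:**
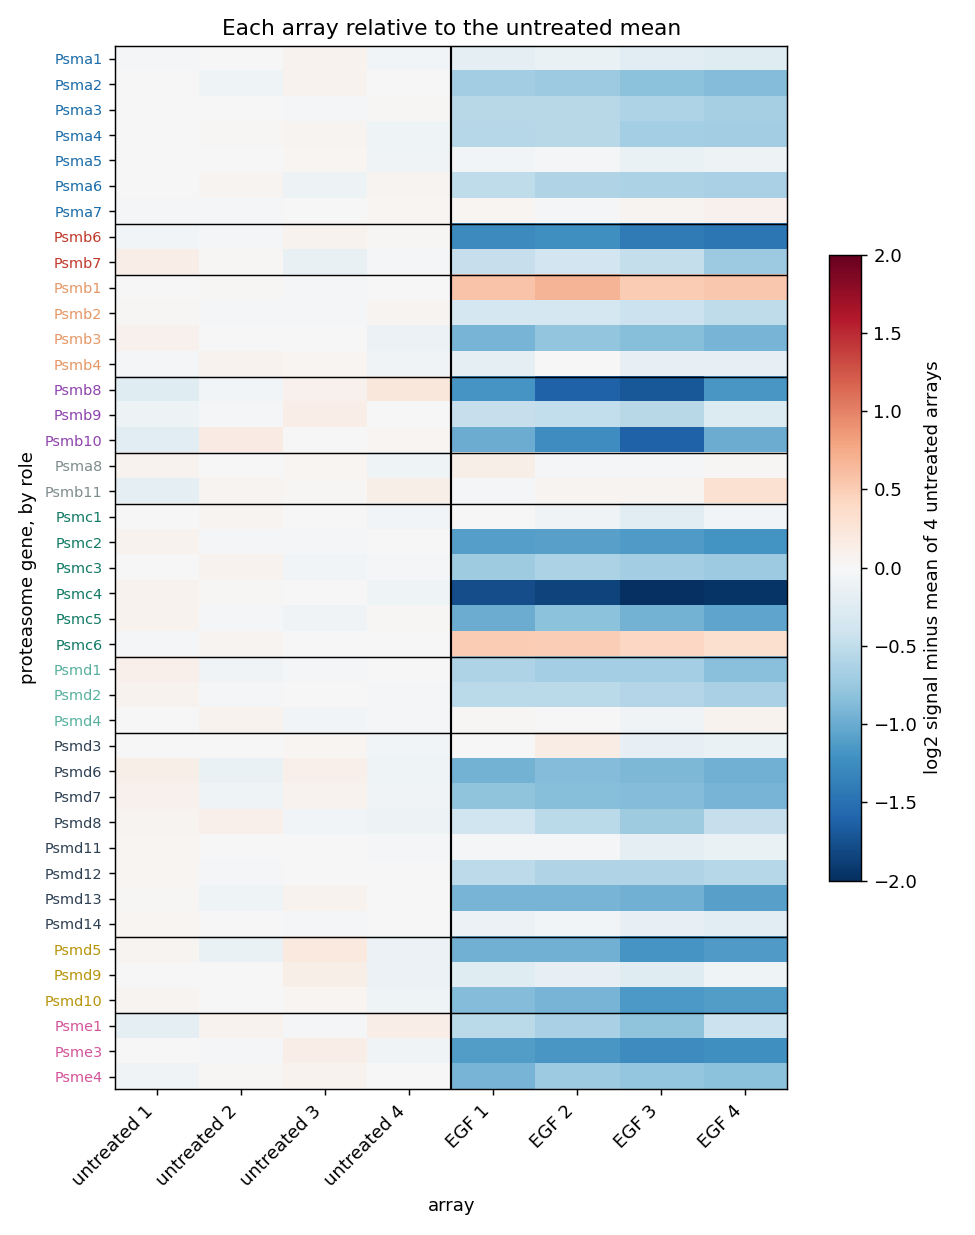
Log2 signal of each of 41 proteasome genes (rows, grouped by role, gene names coloured by role) in each of 8 arrays (columns), as the difference from the gene's mean over the 4 untreated arrays (colour scale, log2). Most rows are blue in all 4 EGF columns, Psmc4 most of all, while Psmb1 and Psmc6 are red there.

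The alpha ring, which forms the gate of the barrel, held members that fell by about 0.6 to 0.8 and members that changed by 0.20 or less. Among its 7 genes there were 5 falls and 0 rises (median -0.60), beside 36% and 42.3% of all genes with a mean signal of at least 6. Psma2 read 12.19, 12.11, 12.26 and 12.20 in the untreated arrays and 11.49, 11.47, 11.37 and 11.32 in the EGF arrays. Its groups do not overlap, and it fell by 0.78 ± 0.07 (log2 fold change ± SE, adjusted p = 3.3e-06), the largest change of the ring. Psma3 read 13.26, 13.28, 13.24 and 13.30 untreated and 12.72, 12.71, 12.65 and 12.61 with EGF, a fall of 0.60 ± 0.06 (adjusted p = 8.0e-06). Psma4 read 11.89, 11.91, 11.93 and 11.80 untreated and 11.31, 11.32, 11.20 and 11.18 with EGF (-0.63 ± 0.06, adjusted p = 1.3e-05). Psma6 read 12.64, 12.70, 12.54 and 12.70 untreated and 12.14, 12.04, 12.01 and 11.99 with EGF (-0.60 ± 0.07, adjusted p = 2.2e-05). In each of these 3 genes too, every EGF array lay below every untreated array. Psma1 fell by 0.20 ± 0.06 (adjusted p = 0.0162). Psma5 changed by -0.08 ± 0.06 (adjusted p = 0.259) and Psma7 by 0.04 ± 0.06 (adjusted p = 0.519), with overlapping groups in both. Psma5 passed as lower after centring each array (-0.27) and after cyclic loess (-0.19). The rings of a barrel hold these subunits in equal number, while their RNA signals here changed by unequal amounts, from -0.78 to 0.04.

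The cutting subunits of the constitutive barrel were represented by Psmb6, which cuts after acidic residues, and Psmb7, which cuts after basic ones. Both fell, beside 36% of all genes with a mean signal of at least 6. Psmb6 read 11.35, 11.37, 11.49 and 11.44 untreated and 10.14, 10.19, 10 and 9.97 with EGF. The groups lay more than 1 log2 unit apart, a 2.53-fold fall (-1.34 ± 0.07, adjusted p = 1.2e-07). Psmb7 read 13.77, 13.66, 13.49 and 13.61 untreated and 13.17, 13.25, 13.15 and 12.91 with EGF, and it fell by 0.51 ± 0.09 (adjusted p = 7.2e-04). The groups of Psmb7 did not overlap either.

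Of the other 4 beta subunits, which build the ring without cutting, 1 rose, 2 fell and 1 did not pass. Among all genes with a mean signal of at least 6, 42.3% rose and 36% fell. Psmb1 read 13.32, 13.34, 13.29 and 13.31 untreated and 13.88, 14, 13.82 and 13.85 with EGF. It was thus higher in all EGF arrays, by 0.57 ± 0.06 (1.49-fold, adjusted p = 1.9e-05), and it was higher under all 3 other scalings (0.39 to 0.45). Psmb3 read 8.61, 8.54, 8.54 and 8.41 untreated and 7.60, 7.74, 7.67 and 7.59 with EGF, without overlap (-0.88 ± 0.07, adjusted p = 1.6e-06). Psmb2 fell by 0.41 ± 0.06 (adjusted p = 2.5e-04). Psmb4 changed by -0.13 ± 0.07 (adjusted p = 0.120); EGF replicate 2 read 8.41 there and overlapped the untreated arrays, and the gene passed as lower after centring (-0.32) and cyclic loess (-0.24).

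The ATPase ring, which threads the substrate into the barrel, held both the largest fall and the second rise among the members. Among its 6 genes there were 4 falls and 1 rise (median -0.82), beside 36% and 42.3% of all genes with a mean signal of at least 6. Psmc4 read 12.08, 12.04, 12.02 and 11.93 untreated and 10.25, 10.16, 10.02 and 10.06 with EGF. Its signal was 3.72-fold lower with EGF (-1.90 ± 0.07, adjusted p = 8.9e-09), with the groups far apart compared with their SDs of 0.06 and 0.10 (n = 4 each). Psmc2 read 11.83, 11.74, 11.72 and 11.75 untreated and 10.66, 10.68, 10.63 and 10.56 with EGF, a fall of 1.13 ± 0.06 (adjusted p = 1.0e-07). Psmc6 went the other way: it read 12.60, 12.68, 12.62 and 12.63 untreated and 13.14, 13.12, 13.04 and 12.95 with EGF. All 4 EGF arrays exceeded all 4 untreated arrays in Psmc6 (0.43 ± 0.06, adjusted p = 2.2e-04; 0.24 to 0.33 under 3 other scalings, past the threshold in each). Psmc5 and Psmc3 fell by 0.96 ± 0.07 and 0.69 ± 0.06 (adjusted p = 1.2e-06 and 3.4e-06). Psmc1 changed by -0.09 ± 0.07 (adjusted p = 0.250). It passed as lower after centring (-0.28) and cyclic loess (-0.20).

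In the rest of the base, Psmd1 and Psmd2, the scaffolds that receive ubiquitin carriers, fell, and the ubiquitin receptor Psmd4 did not pass. Among all genes with a mean signal of at least 6, 36% fell and 42.3% rose. Psmd1 read 12.55, 12.38, 12.43 and 12.46 untreated and 11.83, 11.77, 11.77 and 11.62 with EGF (-0.71 ± 0.07, adjusted p = 9.5e-06). Psmd2 read 14.19, 14.08, 14.12 and 14.10 untreated and 13.58, 13.59, 13.54 and 13.48 with EGF (-0.57 ± 0.06, adjusted p = 1.4e-05). Neither gene's groups overlapped. Psmd4 changed by 0.01 ± 0.06 (adjusted p = 0.946), and by -0.18 after centring, where it passed as lower.

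The 8 lid genes gave 5 falls and 0 rises (median -0.55), beside 36% and 42.3% of all genes with a mean signal of at least 6. Psmd13 read 8.63, 8.52, 8.67 and 8.59 untreated and 7.68, 7.68, 7.64 and 7.52 with EGF, the largest change of the lid (-0.97 ± 0.06, adjusted p = 5.7e-07). Psmd6 read 11.40, 11.16, 11.39 and 11.20 untreated and 10.35, 10.42, 10.39 and 10.33 with EGF (-0.92 ± 0.07, adjusted p = 2.2e-06). The groups were separate in both. Psmd7, the inactive partner of the deubiquitinase, also fell, as did Psmd12 and Psmd8 (-0.86 ± 0.07, -0.58 ± 0.06 and -0.53 ± 0.08; adjusted p = 1.9e-06, 8.6e-06 and 3.3e-04). Psmd14, the lid's deubiquitinase, changed by -0.14 ± 0.06 (adjusted p = 0.0662), and Psmd3 by -0.04 ± 0.08 (adjusted p = 0.708). Psmd11, known to promote particle assembly in stem cells, changed by -0.10 ± 0.06 (adjusted p = 0.191). Psmd11 and Psmd14 passed as lower after centring (-0.28 and -0.33) and cyclic loess (-0.21 and -0.24), and also after a further quantile normalization (-0.14 and -0.15). In both genes, though neither passed as deposited, all EGF arrays lay below all untreated arrays.

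Psmd5, Psmd9 and Psmd10 carry subunit names but are chaperones that help assemble the base and leave the finished particle. All 3 fell, beside 36% of all genes with a mean signal of at least 6. Psmd5 read 12.43, 12.24, 12.56 and 12.26 untreated and 11.41, 11.41, 11.20 and 11.24 with EGF (-1.06 ± 0.09, adjusted p = 3.6e-06). Psmd10, also known as gankyrin, read 10.99, 10.92, 10.98 and 10.85 untreated and 10.06, 10.01, 9.79 and 9.81 with EGF (-1.02 ± 0.08, adjusted p = 1.8e-06). Both genes were about 2-fold lower with no overlap between groups. Psmd9 read close to 6, with overlapping groups, and fell by 0.18 ± 0.07 (adjusted p = 0.0456). This call ended in 8 of 17 alternatives, among them leaving out untreated replicate 1, 2 or 3 (adjusted p = 0.080, 0.091 and 0.12) or EGF replicate 1, 2 or 3 (adjusted p = 0.10, 0.064 and 0.10).

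**Figure D2:**
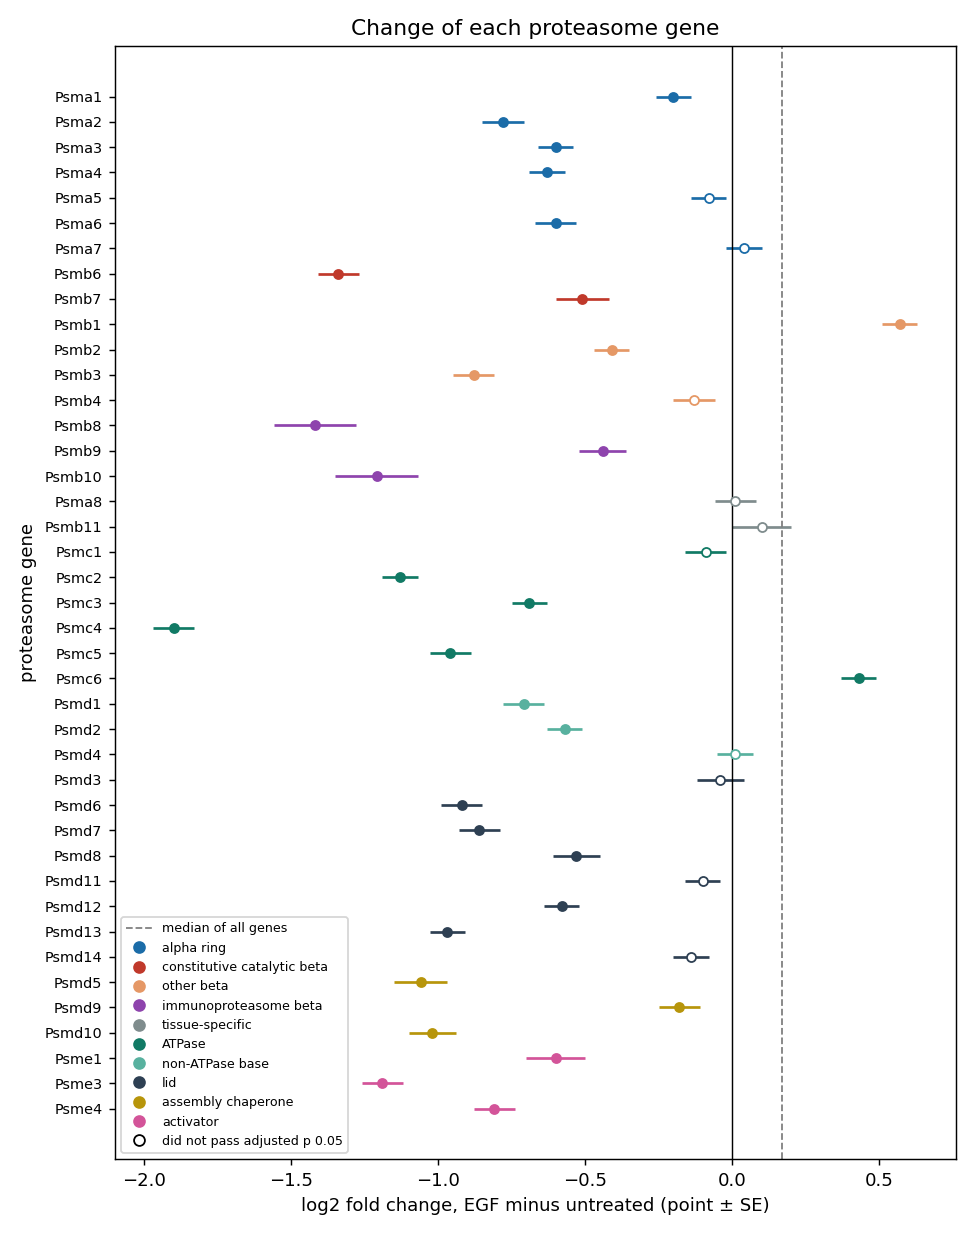
Log2 fold change of each of 41 proteasome genes, EGF minus untreated (horizontal axis; point ± SE from limma, 4 arrays per group), grouped and coloured by role. Open points did not pass the adjusted threshold, the dashed line marks the median of all genes (0.17), and changes run from -1.90 for Psmc4 to 0.57 for Psmb1.

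All 3 measured activator genes fell, beside 36% of all genes with a mean signal of at least 6. Psme3, the nuclear activator known to promote degradation without ubiquitin, read 13.45, 13.43, 13.59 and 13.39 untreated and 12.34, 12.30, 12.21 and 12.24 with EGF. This was a fall of 1.19 ± 0.07 (2.29-fold, adjusted p = 1.6e-07) with a wide gap between groups. Psme4, which caps particles in the nucleus and is known from DNA repair and spermatogenesis, read 10.42, 10.52, 10.56 and 10.49 untreated and 9.56, 9.77, 9.73 and 9.68 with EGF (-0.81 ± 0.07, adjusted p = 2.9e-06). Psme1, the interferon-inducible activator subunit, read 10.71, 10.96, 10.84 and 11.02 untreated and 10.35, 10.24, 10.07 and 10.46 with EGF (-0.60 ± 0.10, adjusted p = 4.7e-04). Its groups were closer together than those of the other activators and still did not overlap.

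The 3 immunoproteasome subunits fell too, beside 36% of all genes with a mean signal of at least 6. Psmb8 read 7.61, 7.79, 7.93 and 8.07 untreated and 6.67, 6.23, 6.16 and 6.68 with EGF, a 2.67-fold fall (-1.42 ± 0.14, adjusted p = 1.3e-05). Psmb10 read 11.59, 11.98, 11.82 and 11.85 untreated and 10.82, 10.57, 10.20 and 10.81 with EGF (-1.21 ± 0.14, adjusted p = 3.7e-05). Psmb9 read 6.14, 6.20, 6.37 and 6.23 untreated and 5.78, 5.75, 5.68 and 5.96 with EGF (-0.44 ± 0.08, adjusted p = 8.7e-04). No EGF array reached the untreated range in any of the 3. Psmb9 read close to 6 in both groups, the cut used here for brighter genes, and at low signal folds can be understated. The EGF arrays spread widely in Psmb8 and Psmb10 (SD 0.28 and 0.29, n = 4), but not in Psmb9 (SD 0.12); SDs of the 38 members outside the immunoproteasome ran from 0.02 to 0.17.

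EGF replicates 1 and 4 read higher than EGF replicates 2 and 3 in Psmb8, Psmb9, Psmb10 and Psme1 alike, and untreated replicate 1 was the lowest untreated array in all 4. Interferon response genes, 19 of which were measured, showed the same pattern: the log2 of their summed signal was 17.58 in untreated replicate 1 and 18.04 to 18.15 in the other untreated arrays. In EGF replicates 1 to 4 that sum was 17.35, 16.64, 16.30 and 17.12. For 17 microglial markers the log2 of the summed signal was 16.87, 16.85, 16.65 and 17.51 in untreated replicates 1 to 4 and 12.17, 11.34, 11.56 and 11.46 with EGF. Most of that sum was Lyz2, which read 16.76, 16.70, 16.46 and 17.35 untreated and 11.67, 10.52, 10.83 and 10.73 with EGF. The mean log2 signal of the 17 markers, which weights them equally, was 8.39, 8.76, 8.74 and 9.33 untreated and 6.19, 5.85, 6.02 and 5.87 with EGF. By that mean untreated replicate 1 was the lowest untreated array, as in the 4 proteasome genes, and EGF replicate 1 was the highest EGF array, while EGF replicate 4 lay below replicate 3. Of these 17 markers, 3 lay below the highest array median in all EGF arrays and 1 in all untreated arrays. Microglia are known to express the immunoproteasome; the part of microglia or of interferon signalling in these falls was not tested.

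**Figure D3:**
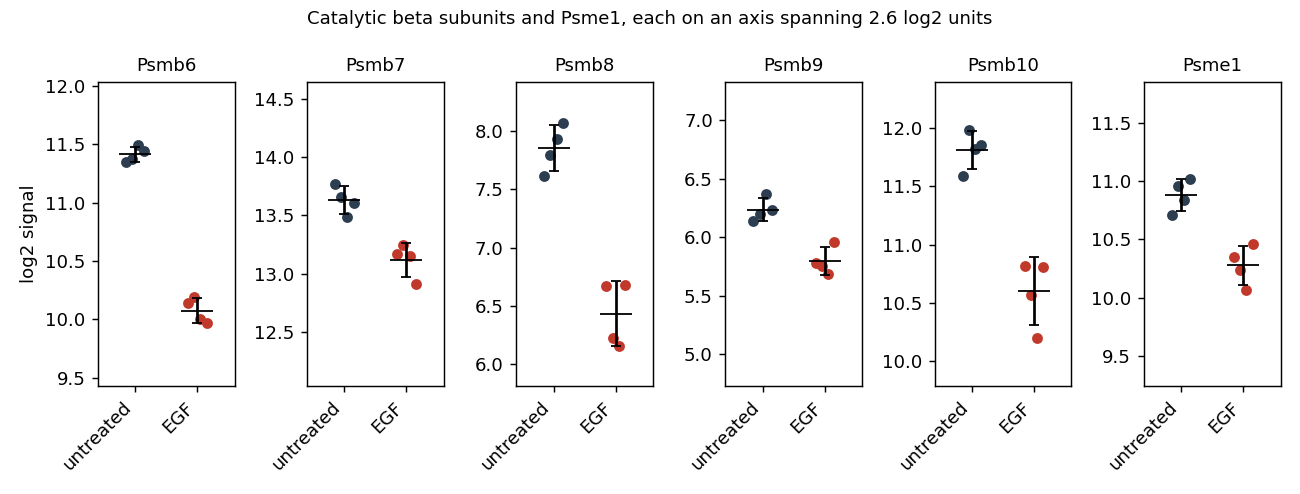
Log2 signal (vertical axis) of Psmb6, Psmb7, Psmb8, Psmb9, Psmb10 and Psme1 in 4 untreated and 4 EGF arrays; points are arrays in order of replicate number, and bars show mean ± SD. All panels span the same log2 range around different levels; the groups are separate in each, and Psmb8 and Psmb10 show the widest spread among EGF arrays.

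Each immunoproteasome subunit takes the place of 1 constitutive subunit, so the changes of exchange partners were compared within arrays for the 2 pairs that could be measured. Psmb9 fell less than Psmb6, with a difference between their changes of 0.89 ± 0.10 (log2, SE, n = 4 per group): Psmb9 minus Psmb6 was -5.21 to -5.12 untreated and -4.44 to -4.01 with EGF, without overlap. The exact two-sided permutation p was 0.0286, the smallest that 4 against 4 arrays allow, and 0.0571 after Benjamini-Hochberg adjustment over the 2 pairs. Psmb10 minus Psmb7 differed in the opposite direction, by -0.70 ± 0.22, from -2.18 to -1.67 untreated to -2.95 to -2.10 with EGF. These ranges overlapped (untreated replicate 1 and EGF replicate 4), with an exact permutation p of 0.0571, and 0.0571 adjusted. Neither pair passed after adjustment. Because Psmb9 was dim in both groups, its fall can be understated and the difference of 0.89 overstated. The differences compare changes and not the levels of 2 probes. Psmb8 could not be set against Psmb5.

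Genes of MHC class I antigen processing, the pathway that uses the immunoproteasome's peptides, were lower, with 9 falls and 1 rise among 11 genes (median -1.64); the rise was lost after quantile normalization. The largest changes were those of H2-D1 (-2.25 ± 0.13), an MHC class I heavy chain, Erap1 (-2.14 ± 0.08), which trims peptides, the peptide-loading chaperone Tapbp (-2.12 ± 0.12) and H2-K1 (-2.05 ± 0.13), with adjusted p from 6.1e-09 to 3.6e-07. In the RefSeq gene order Psmb9, Tap1, Psmb8 and Tap2 follow each other. Along that order the log2 changes were -0.44 ± 0.08 for Psmb9, -0.07 ± 0.15 for Tap1 (adjusted p = 0.721), -1.42 ± 0.14 for Psmb8 and -1.64 ± 0.10 for Tap2 (adjusted p = 4.1e-07). Tap1 and Tap2 encode the 2 parts of 1 peptide transporter, and only Tap2 passed; the difference between their changes was not tested. The 19 interferon response genes gave 15 falls and 0 rises (median -0.78), led by Bst2 (-3.50 ± 0.36), Gbp3 (-2.48 ± 0.20), Iigp1 (-2.38 ± 0.31) and Irf7 (-2.10 ± 0.31). Beside the MHC class I and interferon counts, 36% of all genes with a mean signal of at least 6 fell and 42.3% rose.

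Psma8 and Psmb11, variants known from testis and thymus, lay below the highest array median on every array. Psma8 read 4.35 to 4.51 untreated and 4.40 to 4.56 with EGF, and Psmb11 read 2.87 to 3.19 and 3.03 to 3.38. Neither passed (adjusted p = 0.847 and 0.398), and at this signal no level can be read from them; Psma8 passed as lower after quantile normalization (-0.18) and cyclic loess (-0.18).

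Genes that assemble, bind or regulate the particle moved in both directions. Among 16 measured assembly and associated factors there were 8 rises and 4 falls, with a median of 0.20. The median was 0.17 over all genes and 0.08 over genes with a mean signal of at least 6. As deposited, 42.3% of all genes with a mean signal of at least 6 rose and 36% fell. After centring 3 of these factors rose and 7 fell (median 0.01). Zfand5, which activates the particle and is known from muscle wasting, read 9.03, 9.14, 9.13 and 9.23 untreated and 10.39, 10.35, 10.20 and 10.41 with EGF (1.21 ± 0.07, adjusted p = 2.5e-07). Ecpas, which binds the particle and is known as ECM29, rose by 0.75 ± 0.06, while Zfand2a, a heat- and arsenite-inducible partner, fell by 0.87 ± 0.08 (adjusted p = 1.5e-06 and 4.6e-06). Sem1, the small lid subunit that the naming rule does not cover, read 9.09, 9.24, 9.08 and 9 untreated and 8.36, 8.33, 8.35 and 8.21 with EGF (-0.79 ± 0.07, adjusted p = 5.1e-06). It thus changed in the direction of most lid genes. The assembly chaperones Psmg1 and Psmg4 rose by 0.36 ± 0.07 and 0.41 ± 0.09 (adjusted p = 0.00231 and 0.00292), though neither passed after centring, and Pomp changed by 0.08 ± 0.08 (adjusted p = 0.419).

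Among 13 regulators and extraction factors there were 3 rises and 8 falls (median -0.32). The shares among all genes with a mean signal of at least 6 were 42.3% and 36%. Nfe2l1, which encodes NRF1, fell by 0.39 ± 0.07 (adjusted p = 6.3e-04), and its relative Nfe2l2 rose by 0.49 ± 0.07 (adjusted p = 1.9e-04). Nploc4, a cofactor of the ATPase that pulls ubiquitinated proteins out of membranes, read 13.30, 13.24, 13.33 and 13.21 untreated and 12.10, 12.15, 12.04 and 12.08 with EGF (-1.18 ± 0.06, adjusted p = 7.3e-08). That ATPase, Vcp, fell by 0.72 ± 0.05 (adjusted p = 1.1e-06), as did Sel1l, of the membrane ubiquitin ligase complex, by 0.52 ± 0.07 (adjusted p = 1.2e-04). Of the small Maf proteins, which pair with the factors encoded by Nfe2l1 and Nfe2l2, Maff rose by 0.67 ± 0.12 and Mafg by 0.51 ± 0.06, while Mafk fell by 0.32 ± 0.07 (adjusted p = 6.8e-04, 5.8e-05 and 0.0026). Of 8 measured genes of ubiquitin activation, conjugation and binding 3 rose, 3 fell and 2 did not pass. These 8 were the E1 Uba6, the E2 Ube2k and 6 ubiquitin-binding receptors. Their median was 0.01, and 0 rose and 4 fell after centring. Ubqln2 (-0.46 ± 0.10), Ubqln1 (0.41 ± 0.07), Ubqln4 (0.38 ± 0.08) and Nbr1 (0.35 ± 0.07) changed most.

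The lid shares its architecture with the COP9 signalosome, which removes NEDD8 from cullins, and with the translation factor eIF3, so their genes were counted beside it. The 10 COP9 genes gave 5 falls and 1 rise (median -0.20). Among all genes with a mean signal of at least 6, 36% fell and 42.3% rose. Cops8 (-0.79 ± 0.06), the deneddylase Cops5 (-0.73 ± 0.07), Gps1 (-0.69 ± 0.07) and Cops3 (-0.55 ± 0.06) fell most, with adjusted p from 1.5e-06 to 1.6e-05. Of 11 eIF3 genes 8 rose and 3 fell (median 0.79), and 6 rose and 3 fell after centring. Eif3e (1.23 ± 0.08), Eif3f (1.13 ± 0.06), Eif3m (1.09 ± 0.08) and Eif3h (1.07 ± 0.06) rose most (adjusted p from 8.3e-08 to 1.5e-06). The 3 that fell were Eif3b (-0.76 ± 0.06), Eif3a (-0.34 ± 0.06) and Eif3c (-0.27 ± 0.06). The median of the 8 lid genes was -0.55. No test compared these lists with each other.

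**Figure D4:**
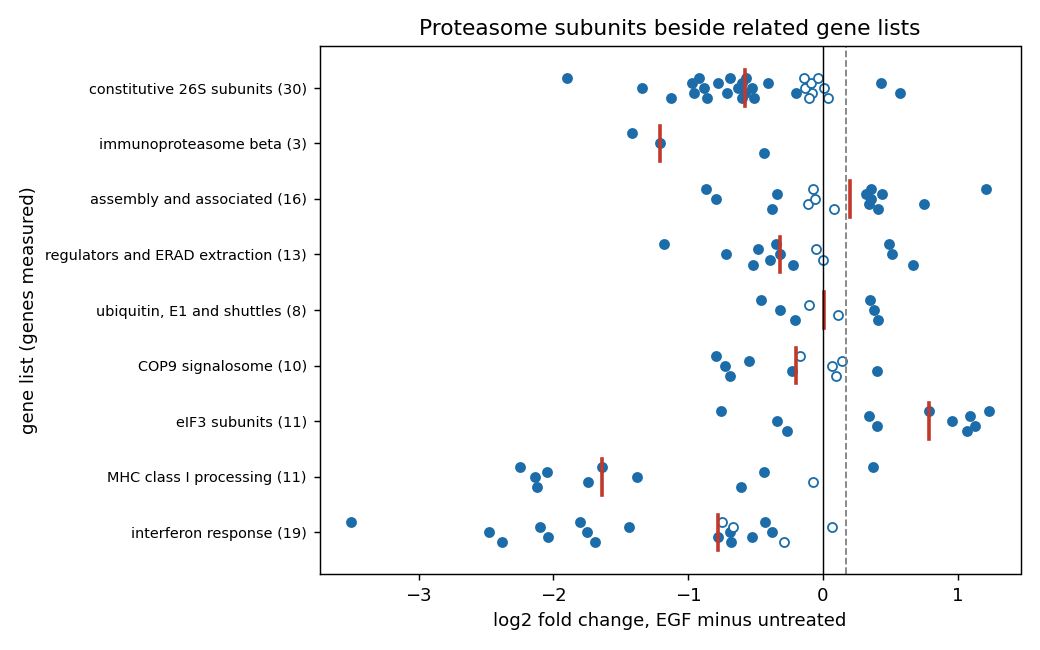
Log2 fold change, EGF minus untreated (horizontal axis), of every measured gene of the constitutive proteasome, the immunoproteasome and 7 related lists (rows, with gene numbers). Points are genes, open where they did not pass, red bars are list medians and the dashed line is the median of all genes; the medians run from -1.64 for MHC class I processing to 0.79 for eIF3.

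A second table from the authors lists 4136 clusters with averages named ctrl and gf, all at least 1 log2 unit apart. The authors' deposited table names 1 of the 41 members, Psmd11, with averages of 11.68 in ctrl and 12.83 in gf (p = 0.000159 and false discovery rate 0.00789 in that table). The arrays analysed above gave 12.01 ± 0.02 untreated and 11.91 ± 0.08 with EGF for Psmd11 (SD, n = 4). None of the 8 members that changed by at least 1 log2 unit here is in the authors' deposited table. Over all its rows, the ctrl average in the authors' deposited table lay within the range of the 4 untreated arrays in 16.1% and the gf average within that of the 4 EGF arrays in 17.9% (tolerance 0.01), with median absolute differences from the array means of 0.72 and 0.67. The averages in the authors' deposited table are therefore not those of the 8 arrays as given, and the labels and headers do not say from which arrays or processing they come.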

How the data were processed

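The authors deposited 1 log2 signal for each transcript cluster and sample, from mouse arrays. Per the submitters' processing notes, the tools were RMA, affy and limma, with no roles stated. The log2 scale was inferred from the values' range and from the second table's header. How arrays were centred and the genome build of the clusters are not given in the sources used here. The second deposited table holds, per the file headers, averages of each group on the log2 scale with p-values and false discovery rates. Of 65956 clusters, 31292 could be tied to 1 gene through the platform annotation and RefSeq (GRCm38.p6), and the brightest cluster over all arrays was kept for each of 30738 genes; each member has 1 cluster. Cross-hybridisation of processed copies of subunit genes was not tested. Values were fitted as deposited with limma 3.58.1 (R 4.3.3), two-sided, with no filter and no block. The fit was also run on simulated data in which few genes changed and no array was shifted. That setting is unlike these data, so the run does not show how the fit performs here. Precision is limited by the 4 arrays in each group. The members and lists were chosen with earlier results of these data known. Every member was accounted for; values per array are given for core and activator members that passed with a log2 change of at least 0.5, for catalytic subunits, and for the 2 largest rises and falls in the other roles, and up to 4 genes of each related list are named by size of change among those that passed; others are named for their role after their values were seen. Alternatives were 3 scalings, a filter on dim clusters, mean or all clusters of a gene, a replicate block, omission of each array in turn, array weights, robust eBayes with a trend, adjusted p under 0.01 and treat at 1.5-fold. Upstream sequences are RefSeq's, GRCm38.p6. The comparison of Psmb8 with Psmb5 was not run, since Psmb5 has no cluster of its own. Python 3.11.15, pandas 2.3.3, numpy 2.4.6, scipy 1.17.1 and matplotlib 3.10.9 were used.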

Additional observations from a re-analysis of the deposited data

Results flagged for a closer look

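In Psmb4, EGF replicate 2 read 8.41 against 8.22 to 8.24 in the other 3 EGF arrays, a gap of 0.895 of the group's range. It was the 1 such case in 86 groups of 4 arrays examined over the members and pairs; chance gives about 1 in 20 groups.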

How the results depend on the processing

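Of the 31 members that passed, 30 kept their direction and their side of the threshold in 17 alternatives, the stricter thresholds aside; the exception was Psmd9. The filter on dim clusters removed 2 members that had not passed, Psma8 and Psmb11. The number that fell was 29 and lay between 28 and 30 when 1 array was left out; 32 fell after quantile normalization and 35 after centring or cyclic loess, and 2 rose in each of these. With treat at 1.5-fold, 15 members fell and 0 rose, since small changes then cannot pass. At adjusted p under 0.01, 27 fell and 2 rose. Same-numbered arrays did not deviate together (correlations of deviations -0.0843 to -0.00321), so the replicate block, with 28 falls and 2 rises, is a check only. In that block Psmb9 against Psmb6 had an exact sign-flip p of 0.125, the smallest it allows, with the same difference of 0.89. Without 1 array that difference was 0.80 to 0.95, and that of Psmb10 against Psmb7 -0.84 to -0.55; those tests cannot pass at this size.

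Of the 10 members that did not pass, Psma7, Psma8, Psmb11 and Psmd4 changed sign under another scaling. Psma7 was at -0.14 after centring and -0.05 after cyclic loess. Psma8 was at -0.18, -0.17 and -0.18, Psmb11 at -0.05, -0.09 and -0.07, and Psmd4 at -0.01, -0.18 and -0.09 after quantile normalization, centring and cyclic loess. Without 1 array, Psma8 ranged from -0.02 to 0.04, Psmd3 from -0.10 to 0.01 and Psmd4 from -0.02 to 0.03. The cause of these sign changes was not tested. The scalings remove the 0.17 shift of the median gene, which stayed at 0.16 to 0.18 when 1 array was left out. Dim signals limit Psma8, Psmb11, Psmb9 and Psmd9.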
